A study of Oryza sativa with 9 samples.

Results

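A set of 10 light-harvesting antenna genes of rice leaves was followed across 9 RNA sequencing libraries: 3 genes of Lhcb1 and 1 gene each of Lhcb2, Lhcb3, Lhcb4, Lhcb5, Lhcb6, Lhca1 and Lhca3. They were chosen by locus identifier from the 55986 identifiers of the authors' table, and all 10 were found there. The libraries were made from total RNA of leaves of paddy-grown plants at 40 days and fall into 3 groups of 3. Plants of line 2 (osatxr5c;osatxr6kd-2) and line 1 (osatxr5c;osatxr6kd-1) carried the double mutant genotype osatxr5c;osatxr6kd, and the last group, titled NP, had the genotype WT. OsATXR5 and OsATXR6 are the rice counterparts of plant enzymes that methylate histone H3 at lysine 27. The labels do not say how the alleles were made, whether the lines arose independently, or whether a replicate number stands for a separate plant, so the p-values below measure the spread between these libraries, which may be technical. The levels of the targeted genes were not analysed here.

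Antenna proteins bind chlorophyll and carotenoids in the thylakoid membrane of chloroplasts and pass the absorbed energy to the photosystem reaction centres. The Lhcb proteins serve photosystem II and the Lhca proteins serve photosystem I. Lhcb1, Lhcb2 and Lhcb3 form the trimers of the main antenna complex, Lhcb4, Lhcb5 and Lhcb6 are monomers placed between the trimers and the photosystem core, and Lhca1 and Lhca3 belong to the crescent of antenna proteins on one side of photosystem I. All are encoded in the nucleus, and their transcripts are among the most abundant in green leaves.

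Antenna transcripts were abundant in all 3 groups, and the changes called were small. Against WT, Lhcb3 fell by 17.3% in mean TPM in line 1, and the Lhcb1 gene LOC_Os09g17740 fell by 16.1%. The Lhcb1 gene LOC_Os01g41710 and Lhcb6 rose in line 2, by 14.6% and 13.2% against WT. Set against each other, the lines differed in 6 of the 10 genes, all higher in line 2 than in line 1, in a contrast where 22% of all genes tested passed and 15.2% passed as higher. Of these calls, the pair for Lhcb3 (lower in line 1 than in WT and higher in line 2 than in line 1) passed the threshold under all 18 alternative settings run, and each of the others lost it when the libraries were rescaled by their median ratio.

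The values are TPM, a relative abundance corrected for gene length that adds up to 1000000 in every library. The depth behind them is unknown, because TPM does not carry it, and no counting error is given. Between 21798 and 22621 genes per library were listed above 0. Leaf identity was looked at only through the antenna genes themselves, which is not an independent check. Of the 10, 9 ranked between 7 and 81 among all genes in every library, and the Lhcb1 gene LOC_Os01g52240 ranked between 562 and 22622. No other marker list was used. In bulk RNA, fewer green cells and less antenna RNA per cell cannot be told apart. Changes were tested with limma on log2(TPM + 1) over the 19345 genes that averaged 1 TPM or more in the 9 libraries, a filter that all 10 antenna genes passed. The threshold was a Benjamini-Hochberg adjusted p of 0.05 over all genes tested.

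**Figure D1:**
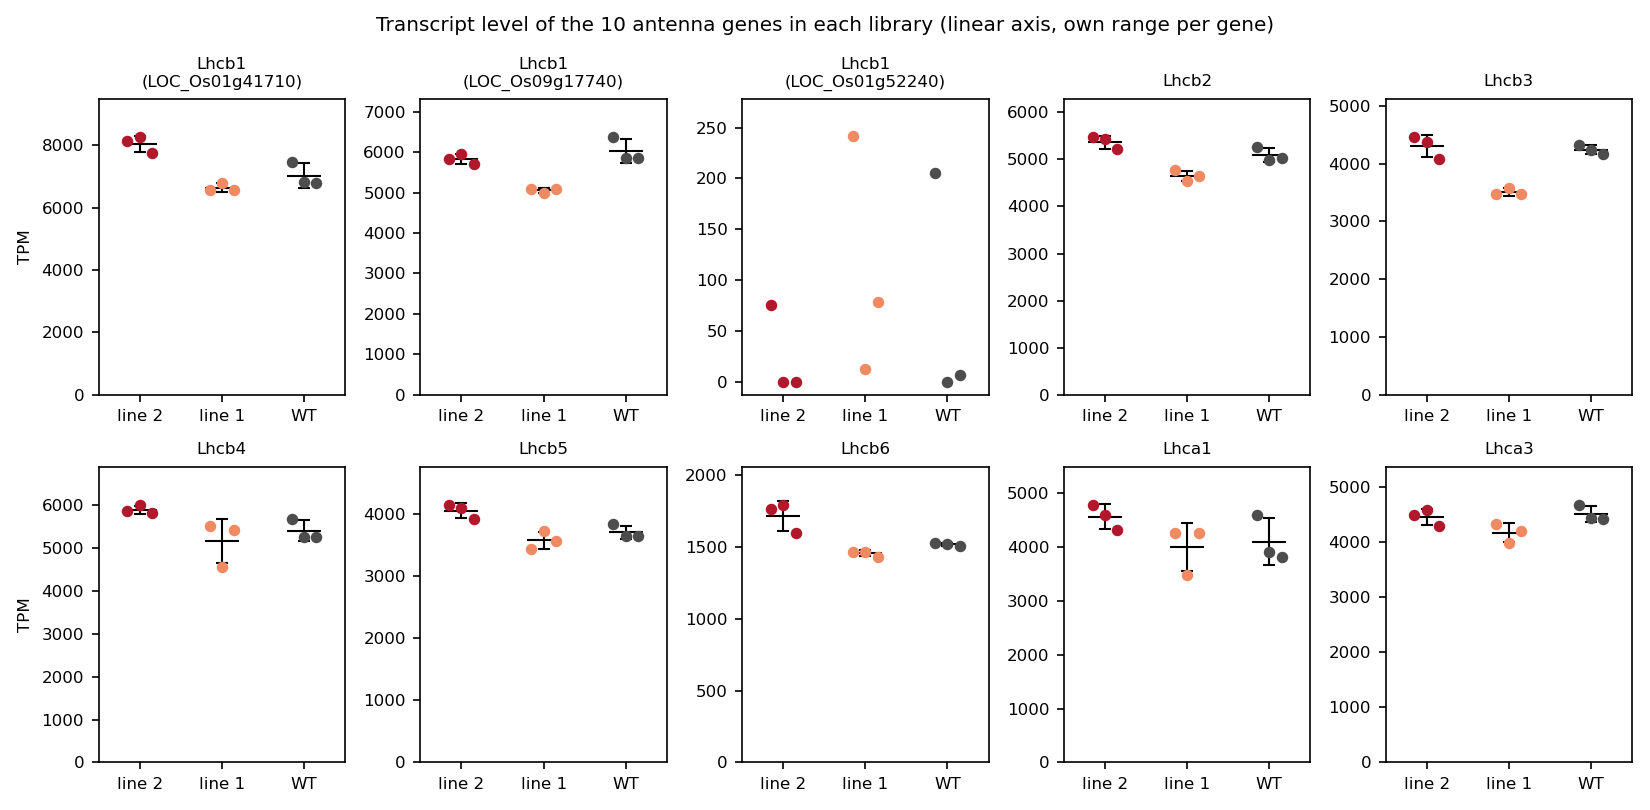
TPM (linear axis, with a separate range for each gene) of the 10 antenna genes in line 2, line 1 and WT. Points are libraries, in the order of their replicate number, and bars give the mean and SD of 3 libraries, left out for LOC_Os01g52240. The 9 stable genes lie between 1432 and 8253 TPM, while LOC_Os01g52240 ranges from 0 to 242 TPM with libraries of one group far apart.

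The order of levels was similar in the 3 groups, as the plot of TPM by library shows. The Lhcb1 gene LOC_Os01g41710 was the highest antenna gene in each group and Lhcb6 the lowest of the 9 stable genes. In both lines Lhcb4 and the Lhcb1 gene LOC_Os09g17740 came next with overlapping libraries. In WT, LOC_Os09g17740 was above Lhcb4 without overlap. Lhcb2 held the fourth place in each group. Lhca1, Lhca3, Lhcb3 and Lhcb5 filled the places from the fifth to the eighth, and most neighbours among these overlapped.

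The 3 Lhcb1 genes encode the most abundant protein of the trimers. Lhcb1 genes of plants are close copies of each other, and the authors' treatment of reads shared between copies is not stated, so the split between these loci is uncertain. LOC_Os01g41710 measured 8153, 8253 and 7765 TPM in the line 2 libraries, against 6555, 6799 and 6580 TPM in the line 1 libraries and 7480, 6809 and 6807 TPM in those of WT. All libraries of line 2 lay above all of WT, and all of line 1 lay just below the lowest WT library. Its change was 0.20 ± 0.05 (SE; limma, adjusted p = 0.015) on the log2 scale in line 2 against WT. After median-ratio scaling it was 0.18 ± 0.07 (SE; limma, adjusted p = 0.080), a similar change with a wider SE. After quantile normalization it was only 0.03 (limma, adjusted p = 0.68). Line 2 exceeded line 1 by 0.28 ± 0.05 (SE; limma, adjusted p = 0.0016). That difference was 0.20 (limma, adjusted p = 0.060) after median-ratio scaling and 0.06 (limma, adjusted p = 0.40) after quantile normalization. The change in line 1 against WT was -0.08 ± 0.05 (SE; limma, adjusted p = 0.29), with a 95% confidence interval of -0.19 to 0.03.

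LOC_Os09g17740 measured 5828, 5967 and 5704 TPM in the line 2 libraries, against 5096, 4983 and 5095 TPM in the line 1 libraries and 6367, 5859 and 5850 TPM in those of WT. Line 1 stood below both other groups without overlap, while line 2 and WT overlapped. The change in line 1 against WT was -0.25 ± 0.05 (SE; limma, adjusted p = 0.0018). After median-ratio scaling it was -0.19 ± 0.07 (SE; limma, adjusted p = 0.058), and after quantile normalization -0.10 (limma, adjusted p = 0.15). Line 2 exceeded line 1 by 0.21 ± 0.05 (SE; limma, adjusted p = 0.0083). For line 2 against WT it was -0.05, with a 95% confidence interval of -0.15 to 0.06.

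The remaining Lhcb1 gene, LOC_Os01g52240, was at 76.1 TPM in 1 library of line 2 and listed at 0 in the other two. The line 1 libraries gave 242, 13.4 and 78.6 TPM, and those of WT gave 205, 0 and 7.31 TPM. Replicate 1 was highest in each group, and within each replicate number line 1 was highest. The ranges of the 3 groups overlapped, so without pairing by that number no difference between groups could be sized. With the number as a block, line 1 against WT passed (limma, adjusted p = 0.014). So did line 2 against line 1 (limma, adjusted p = 0.00074), but line 2 against WT did not (limma, adjusted p = 0.13). This locus is 1 of 9 genes in the table for which libraries of the same group hold both a 0 and a value of 5 TPM or more. A value of 0 can be a failed estimate, so nothing is read from its fitted change, which still enters the medians over the 10 genes. It held at most 0.617% of the summed antenna TPM in any library.

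Lhcb2, a trimer protein that in Arabidopsis is phosphorylated when antenna moves between the photosystems, measured 5467, 5425 and 5212 TPM in the line 2 libraries, against 4766, 4552 and 4640 TPM in the line 1 libraries and 5256, 4980 and 5036 TPM in those of WT. Line 1 lay below both other groups without overlap. Against WT its change in line 1 was -0.13 ± 0.05 (SE; limma, adjusted p = 0.059), which missed the threshold. Line 2 was higher than line 1 by 0.21 ± 0.05 (SE; limma, adjusted p = 0.0059).

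Lhcb3, which in Arabidopsis occurs in the trimers bound at the edge of the photosystem II complex, measured 4453, 4374 and 4085 TPM in the line 2 libraries. The line 1 libraries gave 3472, 3586 and 3466 TPM, and those of WT gave 4326, 4235 and 4167 TPM. Every library of line 1 was below every library of the other groups, and line 2 overlapped WT. The change in line 1 against WT was -0.27 ± 0.05 (SE; limma, adjusted p = 0.00077). Against WT line 2 showed 0.02, with a 95% confidence interval of -0.08 to 0.12. The direct comparison of line 2 with line 1 gave 0.29 ± 0.05 (SE; limma, adjusted p = 0.0005). Relative to Lhcb2 in the same library, a ratio of TPM as deposited that 1 scale factor per library leaves as it is but quantile normalization does not, Lhcb3 was at 0.815, 0.806 and 0.784 in line 2, at 0.729, 0.788 and 0.747 in line 1 and at 0.823, 0.850 and 0.827 in WT. Both lines lay below WT in this ratio without overlap, and replicate 2 of line 1 lay within the range of line 2.

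Among the monomers, Lhcb4 measured 5871, 6003 and 5811 TPM in the line 2 libraries, against 5519, 4572 and 5421 TPM in the line 1 libraries and 5688, 5270 and 5263 TPM in those of WT. Line 2 lay above the other groups, and replicate 2 of line 1 stood low, which widened the spread of line 1. The change of Lhcb4 in line 2 against line 1 was 0.19 ± 0.07 (SE; limma, adjusted p = 0.053), which missed the threshold. It passed after quantile normalization with 0.15 (limma, adjusted p = 0.037) but not after median-ratio scaling, with 0.12 (limma, adjusted p = 0.37). Over the 18 alternatives this change ranged from 0.11 to 0.24. Against WT line 2 differed by 0.13 ± 0.07 (SE; limma, adjusted p = 0.22).

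Lhcb5 measured 4139, 4096 and 3911 TPM in the line 2 libraries, against 3443, 3721 and 3563 TPM in the line 1 libraries and 3830, 3640 and 3643 TPM in those of WT. Line 2 was above both other groups, and line 1 overlapped WT. Line 2 exceeded line 1 by 0.18 ± 0.05 (SE; limma, adjusted p = 0.018). That difference was 0.11 (limma, adjusted p = 0.26) after median-ratio scaling and 0.02 (limma, adjusted p = 0.74) after quantile normalization. The call was kept under 11 of the 18 alternatives. Against WT line 2 differed by 0.13 ± 0.05 (SE; limma, adjusted p = 0.083).

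Lhcb6, which in Arabidopsis links the outer trimers to the photosystem II core, measured 1765, 1791 and 1600 TPM in the line 2 libraries, against 1468, 1469 and 1432 TPM in the line 1 libraries and 1526, 1523 and 1504 TPM in those of WT. The 3 groups did not overlap, with line 2 highest and line 1 lowest. The change in line 2 against WT was 0.18 ± 0.05 (SE; limma, adjusted p = 0.019), and 0.16 ± 0.06 (SE; limma, adjusted p = 0.058) after median-ratio scaling. Between line 2 and line 1 it was 0.24 ± 0.05 (SE; limma, adjusted p = 0.0032). In line 1 against WT it was -0.06 ± 0.05 (SE; limma, adjusted p = 0.41).

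Of the photosystem I genes, Lhca1 measured 4777, 4593 and 4326 TPM in the line 2 libraries, against 4267, 3478 and 4253 TPM in the line 1 libraries and 4594, 3906 and 3809 TPM in those of WT. Line 2 was above line 1 without overlap, but WT covered part of both ranges. The change of Lhca1 was 0.20 ± 0.08 (SE; limma, adjusted p = 0.12) in line 2 against line 1. The line 2 change against WT was 0.16 ± 0.08 (SE; limma, adjusted p = 0.22). Lhca3 measured 4505, 4583 and 4300 TPM in the line 2 libraries, against 4330, 3988 and 4199 TPM in the line 1 libraries and 4675, 4438 and 4431 TPM in those of WT. Its change in line 1 against WT was -0.11 ± 0.05 (SE; limma, adjusted p = 0.12), and in line 2 against WT it was -0.02, with a 95% confidence interval of -0.13 to 0.09. No contrast passed the threshold for either photosystem I gene.

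**Figure D2:**
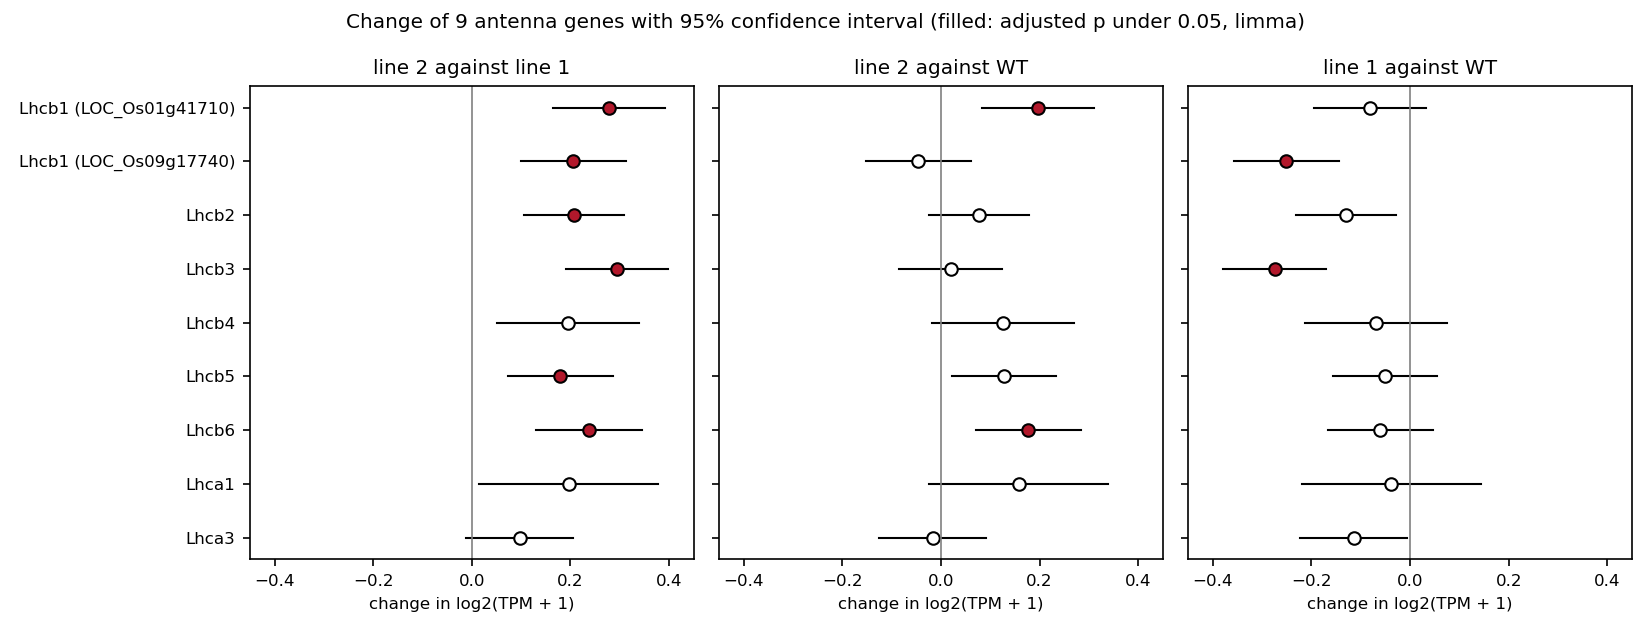
Change on the log2(TPM + 1) scale (horizontal axis) of the 9 stable antenna genes in line 2 against line 1, line 2 against WT and line 1 against WT. Lines are 95% confidence intervals from limma and filled points passed an adjusted p of 0.05 with TPM as deposited. These were 6 genes higher, 2 higher and 2 lower, where 15.2%, 13.5% and 15.7% of all genes tested passed in the same directions. After median-ratio scaling the counts were 1, 0 and 1, beside 9.93%, 13.2% and 10.2% of all genes.

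Counted over the family, 0 of the 10 antenna genes rose and 2 fell in line 1 against WT, where 25.6% of all genes tested passed the threshold, 9.94% as higher and 15.7% as lower. A share of 2 in 10 is near that background. The split of all genes turned with the scaling: after median-ratio scaling 13.0% passed as higher and 10.2% as lower, beside 1 antenna gene lower, and after quantile normalization 10.7% and 14.6%, also beside 1 lower. The median change was -0.07 in the 10 antenna genes, -0.08 in the 9 stable ones and -0.06 in all genes tested. Against WT in line 2, 2 of 10 rose and 0 fell, where 21.9% of all genes tested passed, 13.5% as higher and 8.39% as lower, again near the background. After median-ratio scaling 0 antenna genes passed, with 13.2% of all genes higher and 9.14% lower, and after quantile normalization 2 rose (Lhcb4 and Lhcb6), with 11.8% and 11.7%. The median change was 0.10 in the 10 antenna genes, 0.13 in the 9 stable ones and 0.00 in all genes tested. Leaving out WT replicate 2, WT replicate 3, line 2 replicate 1 or line 2 replicate 2 left 0 antenna genes past the threshold, and leaving out line 1 replicate 2 gave 4. The number of all genes called higher moved too, from 2613 in the main fit to between 2118 and 2375 in the first 4 fits. It was 2805 without line 1 replicate 2. In the 4 fits with 0 calls, which have 1 library fewer, the change of LOC_Os01g41710 was still 0.17 to 0.19 and that of Lhcb6 0.15 to 0.18. The comparisons of the lines with WT share the WT libraries.

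Set directly against line 1, line 2 had 6 of 10 antenna genes higher and 0 lower, while 22% of all genes tested passed, 15.2% as higher and 6.8% as lower. The 6 were the Lhcb1 genes LOC_Os01g41710 and LOC_Os09g17740, Lhcb2, Lhcb3, Lhcb5 and Lhcb6. The median change was 0.20 in the 10 antenna genes, 0.21 in the 9 stable ones and 0.07 in all genes tested. In 8 of the 10 antenna genes all libraries of line 2 lay above all of line 1, as they did in 27% of all genes tested. The number of calls depended on the scaling: after median-ratio scaling, which brought the median of all genes to 0.00 in this contrast, 1 of 10 passed (Lhcb3), where 9.93% of all genes passed as higher and 9.98% as lower, so that count is at the background. After quantile normalization 3 passed (Lhcb3, Lhcb4 and Lhcb6), where 11.3% of all genes passed as higher and 8.74% as lower. All 9 stable genes kept a positive sign in this contrast with median-ratio scaling, but quantile normalization turned that of Lhca3, to -0.03.

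**Figure D3:**
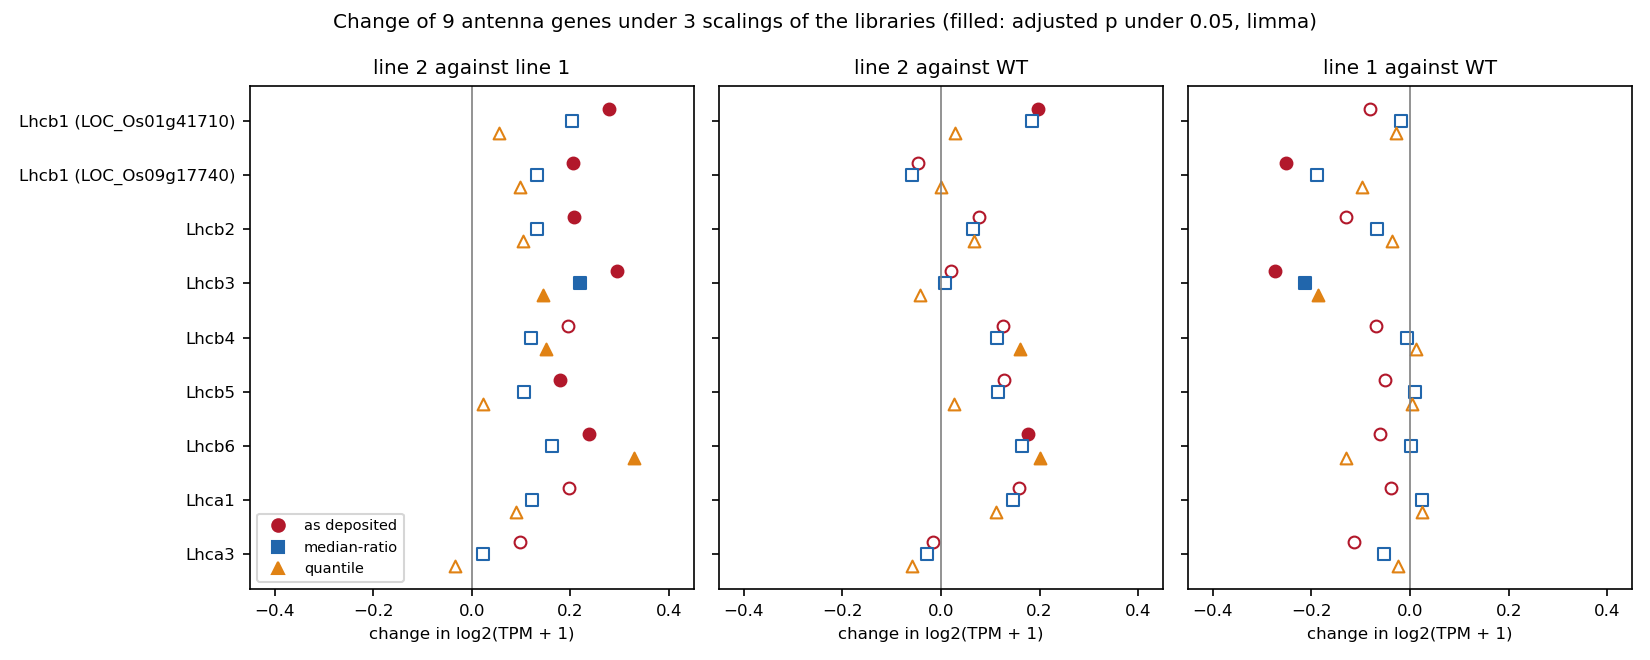
Change on the log2(TPM + 1) scale (horizontal axis) of the 9 stable antenna genes with TPM as deposited, after median-ratio scaling and after quantile normalization, in the 3 contrasts. Filled marks passed a limma adjusted p of 0.05; Lhcb3 is filled under all 3 scalings in line 2 against line 1 and in line 1 against WT, and the changes of Lhcb4, Lhcb5, Lhcb6 and Lhca1 in line 1 against WT lie on different sides of 0 depending on the scaling.

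Summed over the 10 genes, antenna transcripts held 4.27% to 4.51% of library TPM in line 2, 3.72% to 3.92% in line 1 and 4.05% to 4.39% in WT. The means were 4.43% ± 0.135 in line 2, 3.83% ± 0.105 in line 1 and 4.17% ± 0.194 in WT (SD, n = 3 each). Line 1 lay below both other groups without overlap, and replicate 1 of WT was within the range of line 2. A scale factor per library leaves these shares as they are. Median-ratio scaling was therefore followed as the scaled sum set against a fixed 1000000. Its means were 4.33% ± 0.165 in line 2, 3.95% ± 0.160 in line 1 and 4.12% ± 0.313 in WT (SD, n = 3 each). Line 1 overlapped WT in that sum, which is not a share of the library. No test was made on these sums.

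**Figure D4:**
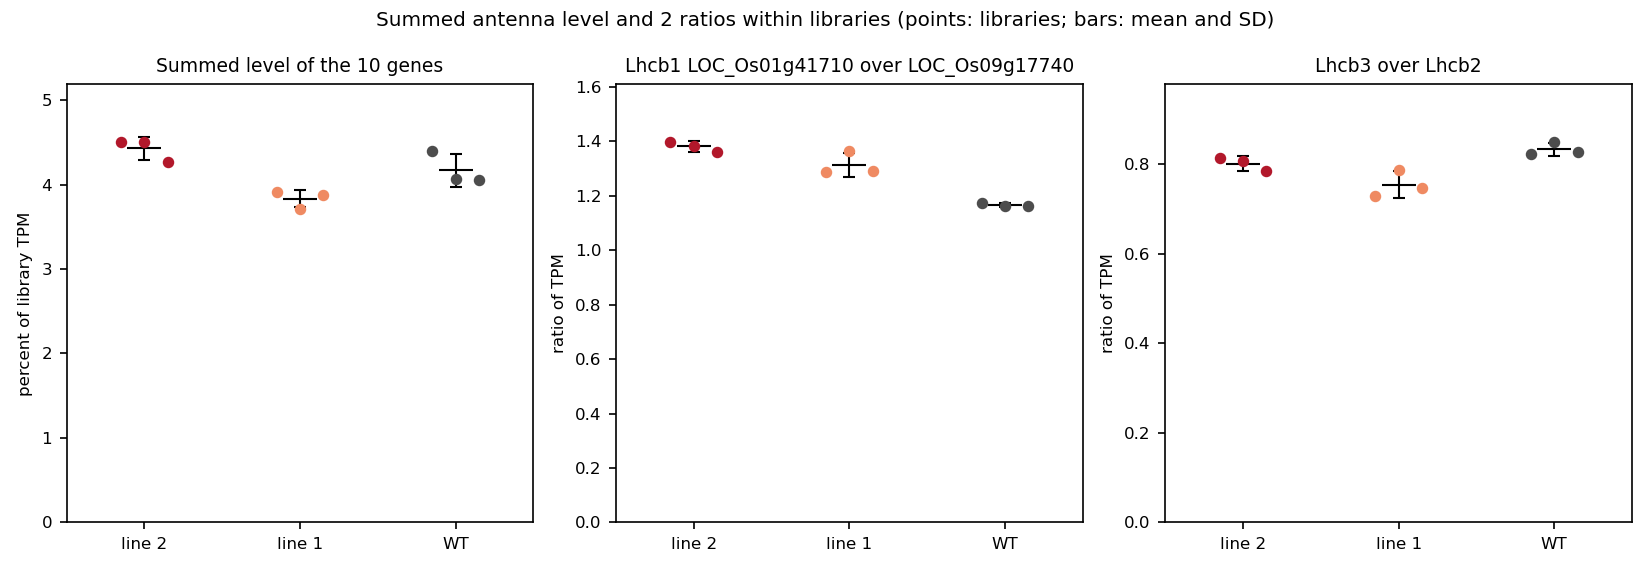
Summed level of the 10 antenna genes (percent of library TPM), the ratio of the Lhcb1 genes LOC_Os01g41710 and LOC_Os09g17740, and the ratio of Lhcb3 to Lhcb2 (both as ratios of TPM), by group, with axes from 0. Points are libraries and bars are the mean and SD of 3; the Lhcb1 ratio of each mutant library, 1.29 to 1.40, exceeds that of each WT library, 1.16 to 1.17.

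Proportions inside the family were close in the 3 groups. The 3 Lhcb1 genes together held 31.4% ± 0.186 of the summed antenna TPM in line 2, 30.8% ± 0.797 in line 1 and 31.5% ± 0.447 in WT (SD, n = 3 each), so the groups overlapped. The monomers Lhcb4 to Lhcb6 held 26.1%, 26.4% and 26.5% in line 2, 26.6%, 26.3% and 26.9% in line 1, and 25.1%, 25.7% and 25.7% in WT. Each mutant library was above each WT library in this part. Lhca1 and Lhca3 together held 20.4% ± 0.210 in line 2, 21.3% ± 1.04 in line 1 and 20.6% ± 0.393 in WT. A part can rise because another part falls, and these parts were not tested.

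**Figure D5:**
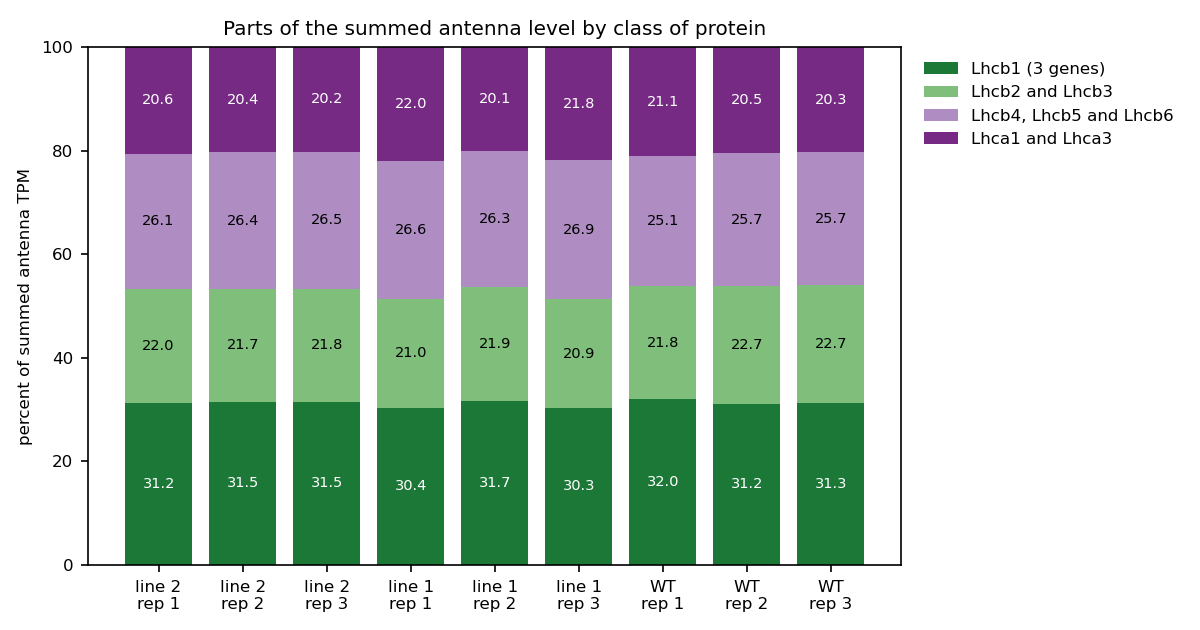
Parts of the summed antenna TPM (percent, stacked bars) held by the 3 Lhcb1 genes, by Lhcb2 and Lhcb3, by Lhcb4 to Lhcb6 and by Lhca1 and Lhca3 in each library. The Lhcb1 part stays between 30.3% (line 1 replicate 3) and 32% (WT replicate 1), and the Lhcb4 to Lhcb6 part is 26.1% or more in the mutant libraries and 25.7% or less in WT.

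The ratio of the 2 abundant Lhcb1 genes separated the mutant libraries from WT. LOC_Os01g41710 stood to LOC_Os09g17740 as 1.40, 1.38 and 1.36 in line 2, as 1.29, 1.36 and 1.29 in line 1, and as 1.17, 1.16 and 1.16 in WT. All mutant libraries were above all WT libraries, and the lines overlapped each other. LOC_Os09g17740 alone held 12.9% to 13.4% of the summed antenna TPM in line 2, 13.0% to 13.4% in line 1 and 14.4% to 14.5% in WT. These ratios were chosen after the values were seen and carry no test, and the part that reads shared between copies play in them was not tested.

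In line 2 and WT, part of the order of libraries was shared across the family. Replicate 1 of WT was highest in WT for each of the 9 stable genes, and replicate 3 of line 2 was lowest in line 2 for each of them. Line 1 had no such order: replicate 2 was highest for 4 genes and lowest for 5. Lhca1 and Lhcb4 varied most in line 1, with coefficients of variation of 11.3% and 10.1%, and Lhca1 had 10.4% in WT. The other 7 stable genes stayed between 0.787% and 6.02% in each group.

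By pattern over the 9 libraries, the genes outside the family most like the mean log2(TPM + 1) of the 10 members were LOC_Os04g55670 and LOC_Os01g49030, with Pearson's r of 0.928 and 0.915. Most of the variation of that mean comes from the unstable LOC_Os01g52240, so these genes mainly follow that gene. Both were low, at 2.33 to 4.21 TPM for LOC_Os04g55670 and 3.65 to 6.28 TPM for LOC_Os01g49030. Without LOC_Os01g52240, a choice made after the values were seen, the closest were LOC_Os06g46149 and LOC_Os11g02510, with r of 0.974 and 0.973. LOC_Os06g46149 measured 93.6, 99.3 and 88.9 TPM in the line 2 libraries, against 79.5, 71.9 and 76.8 TPM in the line 1 libraries and 87.8, 80.8 and 81.9 TPM in those of WT. LOC_Os11g02510 measured 29.7, 32.04 and 27.1 TPM in the line 2 libraries, against 17.4, 12.8 and 14.3 TPM in the line 1 libraries and 23.9, 19.4 and 20.1 TPM in those of WT. The points share libraries and their scaling, and these r values, the highest among all genes searched, are a description.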

How the data were processed

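The authors deposited 1 table of TPM values with a column per library, each summing to 1000000. fastp 0.20.1, HISAT2 2.1.10 and DESeq2 1.26.0 are named, without role or order, per the submitters' processing notes. The program behind the TPM, the genome build, the annotation and strandedness are not given in the sources used here. Depth is unknown, so precision rests on the 3 libraries per group.

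From the TPM, log2(TPM + 1) was fitted with limma 3.58.1 in R 4.3.3, all 9 libraries in 1 model with a mean per group and a variance trend, two-sided, adjusted over the 19345 genes averaging 1 TPM or more. The code was tested on simulated data. Groups came from the sample titles. All members were named, with the 2 genes outside the family most like their mean. Gene names came with the list of loci: 0 of the 10 identifiers matched the 39387 RefSeq records used for names. A further 14 pathway and marker loci, to be used only with a matching record, were therefore not analysed here. Members and lists were chosen with earlier results of these data known. Alternatives covered pseudocount, filter, scaling, fit, replicate block and left-out libraries.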

Additional observations from a re-analysis of the deposited data

Results flagged for a closer look

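Both lines have one genotype label, and each was compared with WT in the same way. For 6 antenna genes the change against WT differed between line 2 and line 1 in the direct limma test, in which 22% of all genes tested passed and 15.2% passed as higher. After median-ratio scaling Lhcb3 kept the call and the other 5 lost it. The difference on the log2 scale (line 2 minus line 1) was 0.28 for the Lhcb1 gene LOC_Os01g41710, with a limma adjusted p of 0.0016, and 0.21 for the Lhcb1 gene LOC_Os09g17740, with a limma adjusted p of 0.0083. It was 0.21 for Lhcb2, with a limma adjusted p of 0.0059, and 0.29 for Lhcb3, with a limma adjusted p of 0.0005. It was 0.18 for Lhcb5, with a limma adjusted p of 0.018, and 0.24 for Lhcb6, with a limma adjusted p of 0.0032. All 3 libraries of line 2 were above all 3 of line 1 for each of the 6. The labels give no batch, so a batch and the line cannot be told apart.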

How the results depend on the processing

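Of 540 values (30 changes of single antenna genes under 18 alternatives), 481 kept their sign and their side of the threshold, 30 lost and 14 gained a call, and 15 changed sign. The 15 were uncalled, and the causes were not tested. In line 1 against WT the sign turned under quantile normalization for Lhcb4 (0.0113), Lhcb5 (0.0045) and Lhca1 (0.0235) and under median-ratio scaling for Lhcb5 (0.0106), Lhcb6 (0.0018) and Lhca1 (0.0236). Without single libraries Lhcb4 ranged from -0.118 to 0.0176 there and Lhca1 from -0.0894 to 0.0592. In line 2 against WT the sign of Lhcb3 turned under quantile normalization (-0.0424), and without single libraries Lhcb3 ranged from -0.0052 to 0.057, Lhca3 from -0.0362 to 0.0097 and LOC_Os01g52240 from -3.58 to 0.56. In line 2 against line 1 the sign of Lhca3 turned under quantile normalization (-0.0333).

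Antenna genes called lower in line 1 against WT numbered 2 as reported, 1 after quantile normalization and 1 after median-ratio scaling. Of all genes tested, 15.7%, 14.6% and 10.2% passed as lower in those fits. Antenna genes called higher in line 2 against WT numbered 2 as reported, 0 after median-ratio scaling and 0 with a constant variance prior. They ranged from 0 to 4 without single libraries. Over all genes, 2613, 2559 and 2531 of 19345 were higher in those fits, and 2118 to 2805 without single libraries. Genes called higher in line 2 against line 1 numbered 6 as reported, 3 after quantile normalization and 1 after median-ratio scaling, and ranged from 4 to 7 without single libraries, and those called lower ranged from 0 to 1 (LOC_Os01g52240, without line 2 replicate 1). Lhcb3 passed in line 1 against WT and in line 2 against line 1 under all 18 alternatives, with limma adjusted p of at most 0.022 and 0.031. Quantile normalization gives genes of the same rank the same value, so for the highest genes it keeps little beyond their rank.

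The summed level after rescaling was set against a fixed 1000000, so it is not a share of the library. It moved under quantile normalization to 4.27% in line 2 and 4.02% in line 1 and under median-ratio scaling to 3.95% in line 1. The Lhcb1 part of line 2 moved to 30.8% under quantile normalization. Leaving out LOC_Os01g52240, added after the data were seen, moved none of the sums or parts by as much as 1 SD. All genes called stayed within 1.5 times the reported counts under each alternative.

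The labels do not say that replicate numbers pair libraries, so the main fit did not. Deviations of same-numbered libraries correlated with r from 0.0116 to 0.212, and 7 of 9 were best with their own number. What the numbers share was not tested. With the number as a block, 1 antenna gene (LOC_Os01g52240) passed as higher in line 1 against WT, beside 1976 of all 19345 genes. In line 2 against line 1, that 1 gene passed as lower and 7 as higher, beside 1366 and 3015 of all genes.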
